A study of Rattus norvegicus with 8 samples.

Results

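The enzymes described here make the deoxynucleotides from which DNA is built and the folate-bound one-carbon units that this synthesis consumes. They are 9 named genes, Rrm1, Rrm2, Tyms, Tk1, Dut, Shmt1, Shmt2, Mthfd1 and Mthfd2. They were chosen by name, but with earlier results of these data known, so the choice was not blind to their values. Of the 9 genes, 8 were matched to probes of the array through a RefSeq accession, by 14 of its 41012 gene probes. Shmt1 was not matched and was not analysed here. RNA came from the right kidney of inbred F344/NSlc rats, all males at 10 weeks of age. A sham operation had been done on 4 rats and unilateral nephrectomy, which takes out 1 kidney and leaves the other to compensate, on 4 others. The series text gives 2 days from operation to sampling for both groups, but the source labels give 1 day for sham and 2 for nephrectomized rats, so a difference in interval cannot be told apart from the operation. Every rat had its own 1-colour (Cy3) array, and each of 2 slides held 2 sham and 2 nephrectomized rats.

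Ribonucleotide reductase, formed by the large subunit Rrm1 and the small subunit Rrm2, turns ribonucleotides into deoxynucleotides and is the entry to DNA precursor synthesis. Thymidylate, which only DNA uses, comes either from Tyms, which methylates dUMP with a one-carbon unit carried by folate, or from thymidine salvaged by the kinase Tk1. Shmt1 and Mthfd1 in the cytosol and Shmt2 and Mthfd2 in mitochondria load one-carbon units from serine onto folate and pass them on. In the adult kidney most cells are out of the cell cycle, and several of these enzymes are known to be made mainly in S phase.

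On the array scale, 5 of the 8 measured enzymes rose in the kidney left after nephrectomy and none fell (limma with Benjamini-Hochberg adjustment over 19868 genes, adjusted p under 0.05). Across all genes tested, 2.57% were called higher and 1.02% lower after nephrectomy. At an unadjusted p under 0.05, 0 of 8 members were lower, against 1509 of all 19868 genes. With so few members, that count does not set them apart from all genes. The 5 were Rrm2 (3.54-fold), Tk1 (1.95-fold), Mthfd2 (1.75-fold), Rrm1 (1.69-fold) and Tyms (1.42-fold). The Mthfd2 value is for its brightest probe, which no sham rat showed well above background. Dut, Shmt2 and Mthfd1 did not pass, with log2 fold changes of 0.22, 0.16 and -0.08. The median log2 fold change was 0.63 over the 8 enzymes and 0.00 over all genes tested. Mthfd2 was kept by the filter on dim probes through its nephrectomized rats alone, so that it had to differ to be counted. Among the 7 enzymes well above background on all 8 arrays, 4 rose and the median was 0.50. Every nephrectomized rat lay above every sham rat in 7 of the 8 enzymes, and in 6 of the 7 without Mthfd2, against 7.6% of all genes tested.

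Values are log2 intensities relative to the array's own 75th percentile over gene probes, so 0 is the level of that percentile and each unit is a doubling. A value thus compares an mRNA with the rest of the same RNA, and RNA per kidney was not measured. Since whole tissue was used, more cells that make an mRNA and more of it per cell cannot be told apart. Of the gene probes, 54.8% to 65.5% were well above background per array, and no spot was saturated. The second principal component over genes (21.6% of the variance) set sham rat 1 apart. The defining markers of kidney tissue were present: all 5 of the proximal tubule, both of the thick ascending limb, both of the distal tubule, and 4 of 4 each of the collecting duct, podocytes and endothelium passed the filter, and none of these passed the test between groups. The albumin and apolipoprotein genes Alb and Apoa1, typical of liver, were under the filter.

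The sequences before the transcription start of 4 of the enzymes that rose are shown because genes of this kind are known to be controlled there, through E2F sites and CCAAT boxes. These are the 250 bases before the start, 5′ to 3′ on the gene's strand, from RefSeq on the GRCr8 assembly. Rrm2 has no entry in the table of promoters used. The windows are chr1:166235654-166235903 on the plus strand for Rrm1, chr9:120776084-120776333 on the minus strand for Tyms, chr10:103544778-103545027 on the minus strand for Tk1 and chr4:117380351-117380600 on the minus strand for Mthfd2. Capitals mark 3 motifs searched by exact letters on both strands. They are the E2F words (TTCCCGC as present in Rrm1, TTGGCGC as present in Tyms, TTCGCGC or else TTGCCGC), the CCAAT box by its letters, and the GC box, spelled GGGCGG. A match on the opposite strand appears as its reverse complement. No marked match overlaps another.
Rrm1: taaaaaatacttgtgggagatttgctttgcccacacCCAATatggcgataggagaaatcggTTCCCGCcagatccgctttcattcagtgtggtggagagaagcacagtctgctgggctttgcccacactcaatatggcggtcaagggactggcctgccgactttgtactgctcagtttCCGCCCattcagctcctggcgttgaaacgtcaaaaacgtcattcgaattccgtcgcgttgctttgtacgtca
Tyms: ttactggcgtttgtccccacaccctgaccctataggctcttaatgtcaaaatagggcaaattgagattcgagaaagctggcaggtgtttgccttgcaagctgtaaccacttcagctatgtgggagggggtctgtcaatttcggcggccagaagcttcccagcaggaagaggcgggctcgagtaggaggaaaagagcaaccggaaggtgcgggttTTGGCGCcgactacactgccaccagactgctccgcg
Tk1: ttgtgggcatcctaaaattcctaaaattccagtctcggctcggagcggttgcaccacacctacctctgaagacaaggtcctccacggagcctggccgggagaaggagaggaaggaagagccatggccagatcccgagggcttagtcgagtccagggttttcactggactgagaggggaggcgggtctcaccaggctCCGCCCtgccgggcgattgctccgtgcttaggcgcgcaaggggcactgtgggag
Mthfd2: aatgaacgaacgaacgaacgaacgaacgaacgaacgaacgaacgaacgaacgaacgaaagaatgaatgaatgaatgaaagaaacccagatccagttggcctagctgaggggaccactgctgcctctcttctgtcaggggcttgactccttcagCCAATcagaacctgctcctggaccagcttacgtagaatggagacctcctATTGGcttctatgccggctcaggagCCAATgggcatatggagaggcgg
In Rrm1 the window held a CCAAT box at 214 to 210 bases before the start, an E2F word at 189 to 183 and a GC box at 72 to 67. Tyms held 1 E2F word, at 36 to 30 bases, and no letters of the other motifs. Tk1 held a GC box, at 54 to 49 bases, and Mthfd2 held 3 CCAAT boxes, the nearest at 23 to 19 bases. Of the 33465 promoter windows of this length, 7.59% held an E2F word, 34.0% a CCAAT box and 30.5% a GC box. Over the 7 members with an entry, 3 held an E2F word, 3 a CCAAT box and 4 a GC box. Shmt1, whose mRNA was not measured, was among those with each of the 3 motifs, Dut had a GC box alone and Shmt2 had none. A match is a description of letters in this window, not a binding site.

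Rrm2, the small subunit of ribonucleotide reductase, which carries the radical needed for catalysis, showed the largest change among these enzymes. On its brightest probe the sham rats 1 to 4 measured -2.58, -2.57, -3.28 and -1.88, and the nephrectomized rats 1 to 4 measured -1.10, -0.94, -0.31 and -0.66. All nephrectomized rats were above all sham rats, and sham rats 3 and 4 marked the ends of a wide sham range (SD 0.57, n = 4, against 0.35, n = 4). The mRNA was 3.54-fold higher (95% interval 2.25 to 5.56, log2 fold change 1.82, SE 0.29, adjusted p = 0.0117 by limma). Normexp background correction reduced this log2 fold change to 1.34, with the call kept (adjusted p = 0.00348 by limma). The second Rrm2 probe gave a 3.05-fold difference (1.61 on the log2 scale, SE 0.18, adjusted p = 0.00279 over all probes). The probes differed most in sham rat 4, at -1.88 on the first and -2.78 on the second. Within slides it was 1.55 (slide 1) and 2.09 (slide 2) on the log2 scale for the brightest probe. Rrm2 was number 45 by log2 fold change among the 511 genes that rose.

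Rrm1, the large subunit, which holds the active and regulatory sites, rose by less. Its brightest probe measured -1.13, -0.91, -1.05 and -0.90 in sham rats 1 to 4 and -0.44, -0.50, 0.25 and -0.26 in nephrectomized rats 1 to 4. The groups did not overlap, and nephrectomized rat 3 stood above the other 3 of its group. The mRNA was 1.69-fold higher (95% interval 1.32 to 2.17, log2 fold change 0.76, SE 0.16, adjusted p = 0.0383). The other 2 probes gave 1.59-fold each (log2 fold changes 0.67 and 0.67, adjusted p = 0.00435 and adjusted p = 0.0409 over all probes), so all 3 Rrm1 probes passed. Within slides the log2 fold change of the brightest probe was 0.54 (slide 1) and 0.97 (slide 2). Its call was lost when any of the 4 sham rats, or nephrectomized rat 1 or 4, was left out (adjusted p 0.052 to 0.116), with log2 fold changes from 0.59 to 0.84 over all 8 removals.

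Tk1, the cytosolic thymidine kinase that recovers thymidine for DNA, nearly doubled. Sham rats 1 to 4 measured -1.46, -1.35, -1.48 and -1.45, and nephrectomized rats 1 to 4 measured -0.64, -0.55, -0.15 and -0.54. The sham rats were close together (SD 0.06, n = 4), and nephrectomized rat 3 was the highest of a wider group (SD 0.22, n = 4). The mRNA was 1.95-fold higher (95% interval 1.65 to 2.31, log2 fold change 0.96, SE 0.11, adjusted p = 0.00233). It was measured by 1 probe, and its log2 difference was 0.81 within slide 1 and 1.12 within slide 2.

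Tyms, thymidylate synthase, had a smaller and even rise. Its probe measured -0.21, -0.32, -0.16 and -0.29 in sham rats 1 to 4 and 0.12, 0.33, 0.33 and 0.25 in nephrectomized rats 1 to 4. No sham rat reached the lowest nephrectomized rat, number 1. The mRNA was 1.42-fold higher (95% interval 1.26 to 1.59, log2 fold change 0.50, SE 0.07, adjusted p = 0.00771), with 0.49 on slide 1 and 0.51 on slide 2. The calls of Rrm2, Tk1 and Tyms held without any single rat (adjusted p 0.00214 to 0.0454 over these 24 fits).

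Dut, the dUTPase that keeps uracil out of DNA and yields the dUMP that Tyms uses, did not pass. Its brighter probe measured 3.25, 3.42, 3.43 and 3.38 in sham rats and 3.58, 3.45, 3.77 and 3.55 in nephrectomized rats 1 to 4. The groups lay apart by a narrow margin, between sham rat 3 and nephrectomized rat 2. The ratio was 1.16 (95% interval 1.02 to 1.32, adjusted p = 0.208). On the second probe the groups overlapped (log2 fold change 0.14, adjusted p = 0.308 over all probes).

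**Figure D1:**
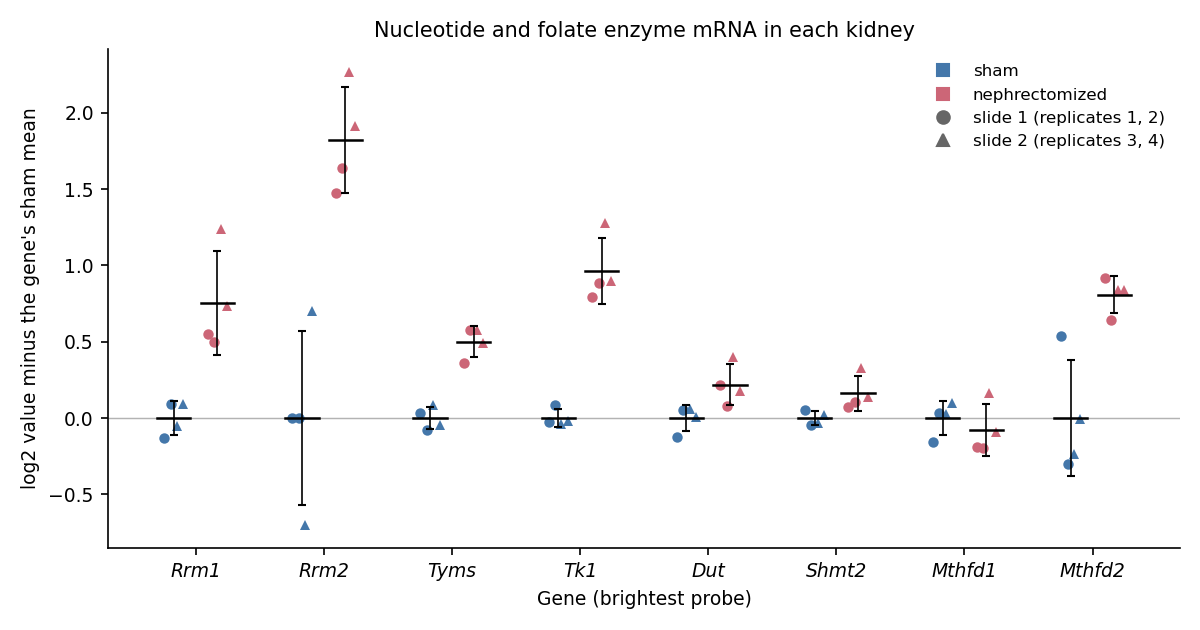
Log2 value of each enzyme's brightest probe in each rat minus the gene's sham mean, for 4 sham (blue) and 4 nephrectomized rats (red); circles are slide 1, triangles slide 2, bars the group mean and SD. The red points lie above every blue point in all genes but Mthfd1, and by most in Rrm2, whose mean difference is 1.82.

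Mthfd2, the mitochondrial dehydrogenase and cyclohydrolase of the folate pathway, which is low in most adult tissues, lay near the detection limit. Its brightest probe measured -3.54, -4.38, -4.31 and -4.08 in sham rats 1 to 4 and -3.16, -3.44, -3.24 and -3.24 in nephrectomized rats 1 to 4. The scanner software called it well above background in every nephrectomized rat (4 of 4) but in 0 of 4 sham rats, and the lowest nephrectomized rat exceeded the highest sham rat by little. The fitted difference was 1.75-fold (95% interval 1.33 to 2.31, log2 fold change 0.81, SE 0.17, adjusted p = 0.044). No sham value lay under the dimmest detected probe of its array, so none was raised to that level. The fold is therefore the fitted value and not a lower bound, and it holds for this probe and scaling alone. Of its other probes, 1 differed by 0.98 on the log2 scale without passing (adjusted p = 0.101), with 2 of 4 sham rats above background. On the remaining probe the groups overlapped (0.55, adjusted p = 0.206), with 3 of 4 sham rats above background. On the brightest probe, slides 1 and 2 gave 0.66 and 0.96. Its call was lost without any single rat but sham rat 1 (adjusted p 0.0794 to 0.128), with slide as a block (adjusted p = 0.0596), and with normexp background correction, which reduced the log2 fold change to 0.28 (adjusted p = 0.119).

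The other folate enzymes measured, Shmt2 and Mthfd1, did not pass. Shmt2, the mitochondrial enzyme that takes the one-carbon unit from serine, measured 3.46, 3.36, 3.37 and 3.42 in sham rats and 3.47, 3.50, 3.73 and 3.54 in nephrectomized rats 1 to 4. Sham rat 1 and nephrectomized rat 1 nearly touched, and nephrectomized rat 3 was the highest. The ratio was 1.12 (95% interval 0.999 to 1.25, adjusted p = 0.286). Mthfd1, the cytosolic enzyme that interconverts folate-bound one-carbon units, measured 3.90, 4.09, 4.08 and 4.15 in sham rats and 3.86, 3.86, 4.22 and 3.96 in nephrectomized rats 1 to 4. Its groups overlapped, and nephrectomized rat 3 was the highest of all 8 rats. The ratio was 0.947 (95% interval 0.811 to 1.11, adjusted p = 0.74). The 95% intervals, not adjusted for the number of genes, thus hold ratios up to 1.25 for Shmt2 and 1.11 for Mthfd1.

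Taken probe by probe, 8 of the 14 probes of these enzymes rose, against 2.34% of the 23985 probes kept. They were the 3 probes of Rrm1, both of Rrm2, those of Tyms and Tk1 and 1 of the 3 of Mthfd2. The filter kept all 3 Mthfd2 probes through the nephrectomized rats alone, so the call on Mthfd2 depends in part on the filter. The probe of Mthfd1 was the only one of the 14 with a negative log2 fold change.

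**Figure D2:**
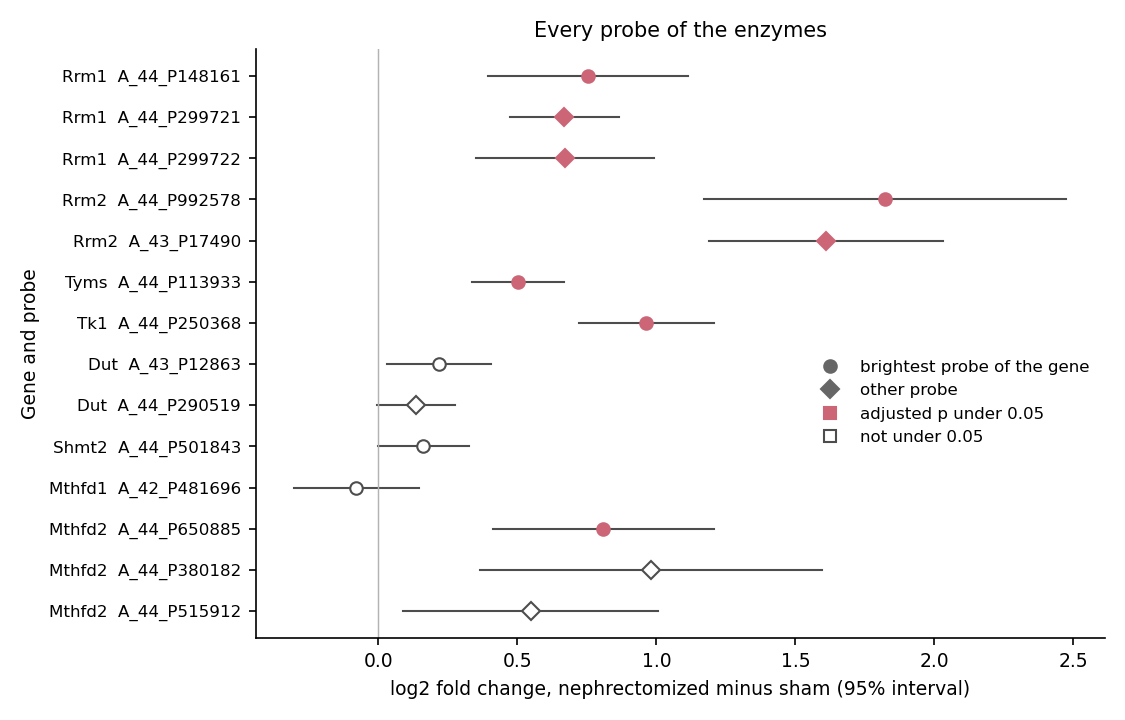
Log2 fold change (nephrectomized minus sham, 4 rats each) with its 95% interval for each of the 14 probes; circles are the brightest probe of a gene, diamonds its other probes, and filled symbols passed an adjusted p of 0.05 over all probes kept. All probes of Rrm1 and Rrm2 are filled, whereas only 1 of 3 is for Mthfd2, whose probes passed the filter through the nephrectomized rats alone.

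The rats were not equally high. Nephrectomized rat 3 had the highest value of its group in 7 of the 8 enzymes, Mthfd2 being the exception. Over all genes it was the highest in 32.7%. The log2 fold change on slide 2, which held this rat, exceeded that on slide 1 in all 8 enzymes, against 47.3% of all genes and 481 of the 712 called genes with a value on all 8 arrays. The difference between slides was not tested. With slide as a block, limma called the same enzymes except Mthfd2. Within slide 1 limma called 0 of the 8 enzymes and within slide 2 it called 0 (4 and 5 at an unadjusted p under 0.05), with 2 rats per group. Without nephrectomized rat 3 the enzymes called were Rrm1, Rrm2, Tk1 and Tyms. Leaving out sham rat 2, 3 or 4, or nephrectomized rat 1 or 4, left 3 in place of 5, namely Rrm2, Tk1 and Tyms.

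Pairs of enzymes that act together or replace each other were compared by their log2 ratio within each array, which asks whether they changed by different amounts. Of the 5 pairs measured, 4 did, each at the smallest p the design allows (exact permutation test over arrays, two-sided, p = 0.0286, adjusted p = 0.0357 over the 5). Rrm2 rose by 1.07 log2 units more than its partner Rrm1 (SE 0.27, 4 rats per group). The ratio of Rrm2 to Rrm2b, the p53-induced small subunit that serves resting cells, rose by 2.13 (SE 0.36). For Rrm2b itself the log2 fold change was -0.31, short of the threshold (adjusted p = 0.251). The ratio of Tk1 to Tk2, the mitochondrial thymidine kinase, rose by 1.04 (SE 0.13), and Tk2 itself had -0.07 (adjusted p = 0.55). Tk1 rose by 0.46 (SE 0.11) more than Tyms. In each of these 4 pairs all nephrectomized rats had a higher ratio than all sham rats, and the log2 difference was positive on both slides. The ratio of the mitochondrial Mthfd2 to the cytosolic Mthfd1 was higher by 0.89 log2 units on average, with sham rat 1 inside the nephrectomized range. Since no sham rat showed Mthfd2 well above background on this probe, that value holds for this probe alone, and no test is given for it. The pair of Shmt2 and Shmt1 was not analysed here.

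**Figure D3:**
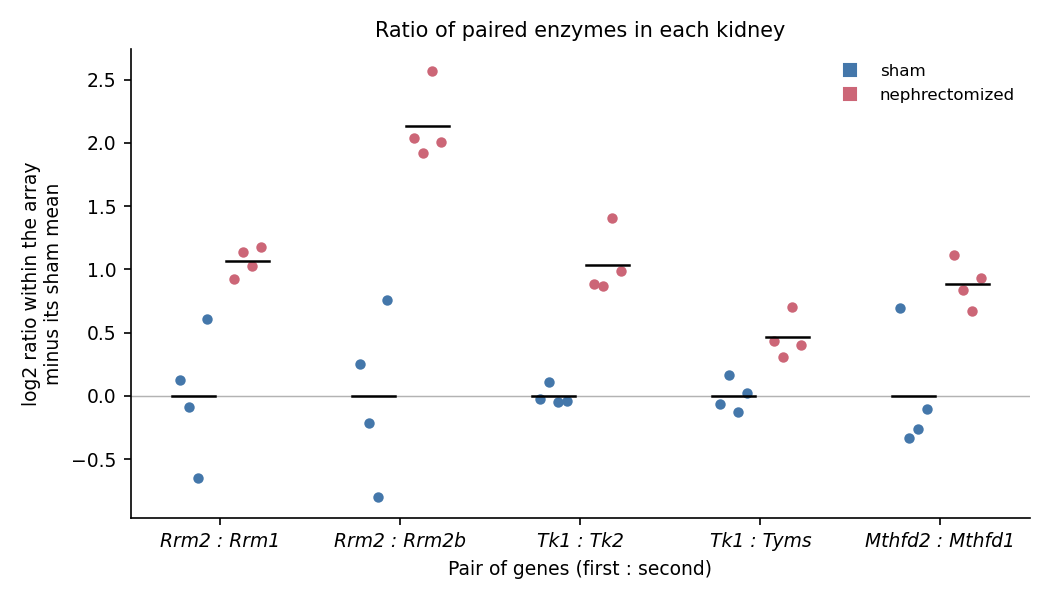
Log2 ratio of 2 enzymes within each array minus the pair's sham mean, for 4 sham (blue) and 4 nephrectomized rats (red), with bars at the group means. The groups separate in the first 4 pairs, by 2.13 for Rrm2 to Rrm2b and by 0.46 for Tk1 to Tyms, and overlap for Mthfd2 to Mthfd1.

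Other genes of these pathways were followed in 5 lists. Of their 71 genes, 60 were measured, of which 3 rose and 1 fell, against 2.57% and 1.02% of all genes tested. With so few called, these counts do not set the lists apart from all genes. The median log2 fold change of the 60 genes was 0.02. Among purine synthesis genes, 1 of 12 rose and the median was 0.08. It was Pfas, which makes an intermediate of the purine ring: sham rats measured -1.17 to -1.01 and nephrectomized rats -0.57 to -0.31, a 1.55-fold rise (0.63 on the log2 scale, SE 0.07, adjusted p = 0.00272). Next by p were Impdh1, of guanine nucleotide synthesis, and Prps2, which supplies the activated ribose (log2 fold changes 0.23 and 0.19, adjusted p = 0.124 and adjusted p = 0.247).

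Of the 9 pyrimidine synthesis genes measured, 1 rose, and the median log2 fold change was 0.14. Dtymk, the kinase that takes thymidylate one step toward its triphosphate and so acts directly after Tyms and Tk1, rose 1.32-fold (0.40 on the log2 scale, SE 0.06, adjusted p = 0.0139). Its sham rats measured 2.44 to 2.54 and its nephrectomized rats 2.83 to 3.02, without overlap. Leaving out sham rat 3 or nephrectomized rat 4 ended its call (adjusted p = 0.0579 in each case). The nucleoside diphosphate kinases Nme1 and Nme2, which make triphosphates, had 0.27 and 0.17 and did not pass (adjusted p = 0.0574 and adjusted p = 0.123).

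Of the 15 genes of deoxynucleotide supply, salvage and breakdown, 1 rose, and the median log2 fold change was 0.03. Dctpp1, a pyrophosphatase that removes surplus and modified dCTP, was 1.97-fold higher (95% interval 1.72 to 2.26, log2 fold change 0.98, SE 0.09, adjusted p = 0.00108). Its values were 2.24, 2.13, 2.02 and 2.17 in sham rats and 3.06, 2.96, 3.29 and 3.17 in nephrectomized rats 1 to 4, a wide gap between groups. Ada, which deaminates adenosine, had 0.31 (adjusted p = 0.0929), and Tymp, which breaks down thymidine, had -0.22 (adjusted p = 0.132).

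The folate cycle and its carriers gave no call among 15 genes (limma, 3 at an unadjusted p under 0.05, all lower), with a median log2 fold change of -0.05. The smallest p values belonged to Slc25a32, the mitochondrial folate carrier (-0.18, adjusted p = 0.161), Mtrr, which reactivates methionine synthase (-0.17, adjusted p = 0.239), and the folate receptor Folr1 (-0.28, adjusted p = 0.248). In the serine and glycine list 1 of 9 genes fell and the median was -0.08. Gnmt, which methylates glycine and binds folate, measured 4.07, 4.17, 4.12 and 4.18 in sham rats and 3.61, 3.57, 3.73 and 3.55 in nephrectomized rats 1 to 4. It fell by 0.52 on the log2 scale, to 0.7 of the sham level (95% interval 0.633 to 0.774, adjusted p = 0.00356). Sardh and Dmgdh, mitochondrial enzymes that release one-carbon units, had -0.26 and -0.35 (adjusted p = 0.16 and adjusted p = 0.275). At an unadjusted p under 0.05 by limma, 3 of 12 purine and 4 of 9 pyrimidine genes passed, none of them lower. In the salvage list it was 5 of 15 (3 lower) and in the serine and glycine list 3 of 9 (all lower). Over all 19868 genes it was 3509 (1509 lower).

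**Figure D4:**
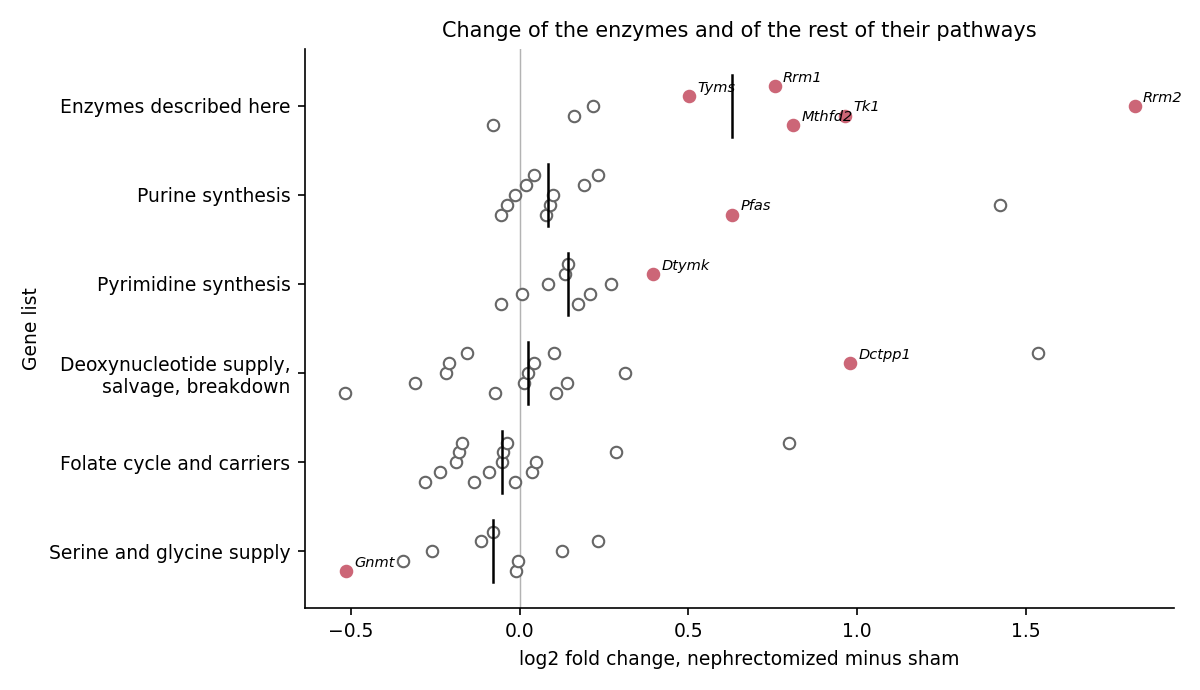
Log2 fold change (nephrectomized minus sham) of each enzyme described here and of each measured gene of the 5 pathway lists; filled points passed an adjusted p of 0.05 over all genes, and vertical bars are list medians. The medians of the 5 lists lie between -0.08 and 0.14, against 0.63 for the enzymes; the 3 open points farthest right are Dguok, Impdh2 and Mthfs, each far lower in sham rat 1 than in any other rat.

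In sham rat 1 the probes of Impdh2, Dguok and Mthfs measured -1.69, -5.04 and -0.79, whereas the other 7 rats measured 3.95 to 4.12, 1.27 to 1.50 and 2.53 to 2.73. Without that rat their log2 fold changes were -0.01, -0.08 and -0.06. Such drops were not limited to sham rat 1. Of the 23985 probes kept, 34, 40, 47 and 9 were over 2 log2 units below all other arrays in sham rats 1 to 4. In nephrectomized rats 1 to 4 the counts were 6, 2, 1 and 3. A drop in a sham rat raises the log2 fold change of its gene. No probe of the enzymes described here was over 2 log2 units below all other arrays in any rat.

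Markers of dividing cells moved with these enzymes. All 5 of Mki67, Pcna, Ccnb1, Cdk1 and Mcm2 rose, with log2 fold changes of 1.78, 0.60, 1.84, 1.92 and 0.76. Their summed level, in multiples of the array's 75th percentile, was 8.63 to 10.4 in sham and 20.1 to 33.1 in nephrectomized rats. Of 10 leukocyte markers 9 were matched and 5 passed the filter, with Cd3e, Cd4 and Itgam among those under it. None of the 5 passed the test, and their summed level was 21.2 to 25.6 in sham and 22.9 to 28.7 in nephrectomized rats. The erythroid markers Alas2 and Hbb had log2 fold changes of -0.62 and -0.50 and did not pass (adjusted p = 0.665 and adjusted p = 0.722). Cyp17a1, a steroid enzyme of the adrenal gland, rose by 0.54 on the log2 scale. Its level was low, at 0.0659 to 0.0875 of the percentile in sham and 0.105 to 0.115 in nephrectomized rats. The filter kept Cyp17a1 only because of the nephrectomized rats, as its probe was too dim in part of the sham group. Its call thus depends in part on the filter. The adrenal markers Cyp11b1 and Cyp11b2 were under the filter. The part of other cells in the results was not tested.

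For each enzyme the 3 genes most alike in pattern were found by Pearson correlation over all 8 arrays among 9305 genes with a symbol, well above background on every array. The arrays share the split into groups, so for the enzymes that rose a high coefficient partly restates that split, and the values are a description. Each is also picked as one of the highest of 9305 over only 8 arrays. Mthfd1, which did not pass, reached 0.991 as well. For Tk1 they were H2az1, a histone variant (r = 0.995), Mcm6 (0.993) and Ccna2 (0.992), of the replicative helicase and the S phase cyclins. For Rrm1 they were Msmo1 (r = 0.991), Pcna (0.989) and Trim59 (0.986), and for Rrm2 Pclaf (0.978), Tpx2 (0.977) and Stat2 (0.975). Those of Tyms were Sypl2 (0.985), Dnajc15 (0.978) and Itgb3bp (0.976). For Mthfd2, whose sham values on its brightest probe were not well above background, they were Shkbp1 (0.989), Top1mt (0.985) and Mrpl4 (0.982). Those of Dut were Cse1l (0.984), Kpna2 (0.980) and Ndufb5 (0.975), and those of Shmt2 Apobec1 (0.986), Anapc5 (0.985) and Atpaf2 (0.973). Mthfd1 followed Ccdc51 (0.991), Fbxo11 (0.986) and Vil1 (0.984).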

How the data were processed

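Arrays of right kidney RNA from 4 sham and 4 nephrectomized rats were analysed. The authors scanned 1-colour Agilent arrays (design 014879) and read them out with Feature Extraction 10.5.1.1 (protocol GE1_105_Dec08), per the file headers; the deposited intensity is background-subtracted within the array and not normalized between arrays. The deposited log2 table of 30448 probes had a correlation of 0.9999 across probes with the values used here after centring each probe on its median (column medians -0.0169 to 0.0152). It served as an alternative.

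Control and outlier spots were removed, log2 intensities averaged per probe, and the array's 75th percentile subtracted. A probe was kept (23985 of 41012) where every array of 1 group or of both had it well above background, in at least a share of 0.5 of its spots. Names came from matching RefSeq accessions to a GRCr8 gene table (18713 probes, 14400 symbols; 22299 kept their accession), since the files hold no gene names. Probe sequences were not used here. Each gene was taken by its brightest kept probe. The comparison used limma 3.58.1 (R 4.3.3; two-sided, no covariates), checked on simulated data. An unadjusted 95% interval is given for folds, and n is 4 rats per group, the number in the series text. P-values weigh a difference against the spread between these samples, and the number of arrays limits the precision.

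The text names every enzyme and probe, the called genes of each list and the 3 with the smallest p, the pairs, and the 3 genes most alike; Impdh2, Dguok and Mthfs were added after their values were seen. The enzymes and lists were chosen with earlier results of these data known. Of 71 listed genes, 7 had no match and 4 were under the filter. Normexp (offset 50) was planned on the mean spot intensity and run on the median, which the files hold. Slide was read from the headers. Other scalings, filters, variance models, blocks and left-out rats were tried, as given further on. Same-numbered rats did not deviate together (correlations across genes of their deviations from the group means 0.10, 0.01, 0.10 and -0.02), so numbers do not pair them.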

Additional observations from a re-analysis of the deposited data

Results flagged for a closer look

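In 4 of 46 groups of 4 rats examined, 1 rat lay far from the other 3 of its group, a gap that chance gives in about 1 of 20 groups. No enzyme described here was among them. Pfas measured -1.17 in sham rat 3 against -1.04 to -1.01 in the other sham rats. Prps2 measured 3.29 in sham rat 2 against 3.47 to 3.48. Tymp measured -0.83 in nephrectomized rat 3 against -1.03 to -0.999, and Folr1 measured 5.22 in the same rat against 4.89 to 4.93.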

How the results depend on the processing

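All 8 enzymes kept the sign of their log2 fold change under every alternative that gave one. The 5 calls held with quantile or median scaling, the deposited table, probes averaged or taken singly, a robust variance trend and array weights. Mthfd2 was not called, and the other 4 were, with normexp, the filter on all 8 arrays (which removes its probes) and slide as a block. The number of enzymes called was 2 (Tk1 and Tyms) without the filter on dim probes, where 35237 genes were tested, 0 within slide 1 and 0 within slide 2, 2 at an adjusted p of 0.01, 1 (Rrm2) with a 2-fold minimum as well, and 3 to 4 without single rats. Over all genes the count of 714 became 282 without the filter, 2256 with array weights, 0 within slide 1 (1633 at an unadjusted p under 0.05), 142 within slide 2, 260 at 0.01, 185 with the 2-fold minimum and 341 to 666 without single rats. Pathway genes called went from 4 to 13 with array weights, 0 within slide 1, 1 (Dctpp1) within slide 2, 0 with the 2-fold minimum and 3 to 5 without single rats. Under the replicate block, which the labels' numbers allow but the data do not bear out as a pairing, 296 genes and 1 enzyme (Tk1) were called; not every rat correlated best with its own number. The log2 ratio of Mthfd2 to Mthfd1, for which no test is read, differed by 0.88 with quantile normalization, 0.86 with the mean of a gene's probes and 0.41 with normexp, against 0.89. Normexp reduced the pair of Rrm2 and Rrm2b from 2.13 to 1.44 and that of Rrm2 and Rrm1 from 1.07 to 0.73. Without single rats the pairs differed by 0.74 to 1.12 (Rrm2 and Rrm1), 1.85 to 2.22 (Rrm2 and Rrm2b), 0.91 to 1.09 (Tk1 and Tk2), 0.38 to 0.52 (Tk1 and Tyms) and 0.78 to 1.12 (Mthfd2 and Mthfd1), with no test run on 3 rats against 4. The cause of these differences was not tested. Signal over background limits Mthfd2 most, whose brightest probe no sham rat showed well above background.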
